A study of Arabidopsis thaliana with 12 samples.

Results

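The genes examined are those of the plastid genome, taken as every feature whose identifier starts with ATCG and whose locus lies on Pt, with a level above 0 in at least 1 group. The plastid genome accounts for 133 of the 33557 features measured, and 70 of these had a level above 0. No entry of the 70 carried the high-data status that the rule leaves out. The levels come from RNA sequencing of cultured Arabidopsis root explants, a comparison of transcripts between 2 genotypes and 2 shoot-induction media. The 12 samples form 4 groups of 3, with the groups labelled CPL4RNAi with and without cytokinin set against the wild type (Col-0 gl1) with and without it. All groups were treated alike up to the last medium: shoots were removed from 10-day-old seedlings, and the roots were kept on a callus-inducing medium for 5 days. A shoot-inducing medium followed for 72 hours, with the cytokinin 2iP (isopentenyladenine) at 0.05 or 0 mg/L, and the labels give 18 days as the age. The titles call the line CPL4RNAi and the genotype field calls the same samples CPL4 KO. The number of lines, the promoter of the construct and whether replicates were separate cultures are not given in the sources used here, so the deposited p-values may rest on technical spread.

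The plastid genome is a small circular genome of bacterial origin that encodes part of the photosynthetic complexes, part of a bacterial type of ribosome and the core of an RNA polymerase. That polymerase, called PEP, is built from the products of rpoA, rpoB, rpoC1 and rpoC2 and needs nuclear-encoded sigma factors to find its promoters. Phage-type polymerases encoded in the nucleus, called NEP, transcribe the rpoB genes and accD, among others. Many plastid genes are transcribed together as polycistronic units and are then cut and spliced, so RNA stability sets much of their level. In roots and callus plastids are mostly not green, and photosynthesis genes of the nucleus are weakly expressed.

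As a check of the labels, CPL4 had 32.2 FPKM with cytokinin and 36.3 without it in the groups labelled CPL4RNAi, against 13.9 and 14.5 FPKM in wild type. FPKM are fragments per kilobase of transcript, scaled to the mapped fragments of a library. CPL4 was thus higher, by 1.21 (SE at most 0.30) with cytokinin and by 1.33 (SE at most 0.33) without it on the log2 scale. The check thus did not show the lower level that the label implies. Whether the CPL4 reads come from the gene or from the construct was not tested. The genotype directions given here go by the labels of the groups. As a check of the tissue, RBCS1A, the nuclear gene of the small Rubisco subunit in leaves, had 0.237 and 0.121 FPKM in the groups labelled CPL4RNAi with and without cytokinin, and 0.314 and 0.116 FPKM in wild type. The other RBCS genes, RBCS1B, RBCS2B and RBCS3B, were listed at 0 or stood at no more than 0.0329 FPKM. Only group values are used here, with no values per replicate and an unknown depth per library. The standard error (SE) of a log2 fold is the one its deposited p-value implies, and a gene was called at a q of 0.05 or less in the authors' deposited table.

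Short stretches of plastid sequence before 6 genes are shown first, because these genes carry the genotype differences described below or head a unit that does. PEP promoters resemble bacterial ones, with the boxes TTGACA and TATAAT a short way apart. In the window from 250 bases before to 50 bases after each annotated coding start of 83 plastid protein genes, the stretch on the gene's strand was taken whose 2 boxes, 16 to 19 bases apart, match the most of 12 letters. The sequences are RefSeq's, build TAIR10.1, written from 5′ to 3′ on the gene's strand, and the capitals mark the places of the 2 boxes. The psbA stretch is Pt:1530-1559 (minus strand) with 11 of 12 letters matched, and the ndhF stretch is Pt:112836-112864 (minus strand) with 11. The rbcL stretch is Pt:54726-54756 (plus strand) with 9 letters, and the atpH stretch is Pt:13715-13743 (minus strand) with 9. The accD stretch is Pt:56901-56931 (plus strand) with 9, and the rpl23 stretch, identical in both copies of the inverted repeat, is Pt:86218-86245 (minus strand) with 9.
psbA: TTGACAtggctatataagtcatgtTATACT
ndhF: TTGACAgtaacttagtaatatttTTTAAT
rbcL: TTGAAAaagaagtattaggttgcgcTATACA
atpH: ATGGCAtaaaaaagtcgtatataTATTAT
accD: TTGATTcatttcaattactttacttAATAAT
rpl23: TATACAtaacgaattggtgtggTATATT
The psbA and ndhF stretches were the only 2 of 83 with 11 or more letters matched, 8 had 10 letters and 73 had 9 or fewer. Searched on both strands, TTGACA stood in 13 of the 83 windows (15.7%) and TATAAT in 36 (43.4%). In the same windows of 27443 nuclear protein genes the shares were 20.1% and 40.3%. A match describes letters and is not a promoter, and a low match says nothing of the polymerase that reads the gene.

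Which plastid genes had a level depended on their kind and place. All 37 tRNA rows were listed at 0, as were 6 of 8 rRNA rows, in libraries that had been depleted of ribosomal RNA, per the labels' protocols. Of 88 rows for proteins or open reading frames 68 had a level. The plastid genome (154478 bases in TAIR10.1) carries 2 copies of an inverted repeat of 26264 bases, and the copies have the same genes. The 9 members in the repeat stood at 0.276 FPKM or less in every group, and the authors tested none of them. They are rpl2, ycf2 and rps7 in both copies, ndhB, and an rrn23S and an rrn16S row. The lowest highest-group levels among all members, just inside the limit of the rule, were 0.00743 FPKM for the rrn23S row, 0.0170 for the rrn16S row and 0.0350 for ndhB, while the rows outside it were listed at 0. How reads that match both copies were counted is not given in the sources used here, so these 9 levels are uncertain. The tested genes rps19, ndhF and ycf1 cross a border of the repeat, so the same limit holds for part of their reads. Outside the repeat 12 of 73 protein rows were listed at 0, of which 11 have 90 to 123 coding bases and the other is the first exon of rps12. The reads were 125 nt long, and the shortest member with a test, psbN, has 132 bases. All 61 other members were tested in every comparison, and none of their levels was under 19.99 FPKM.

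**Figure D1:**
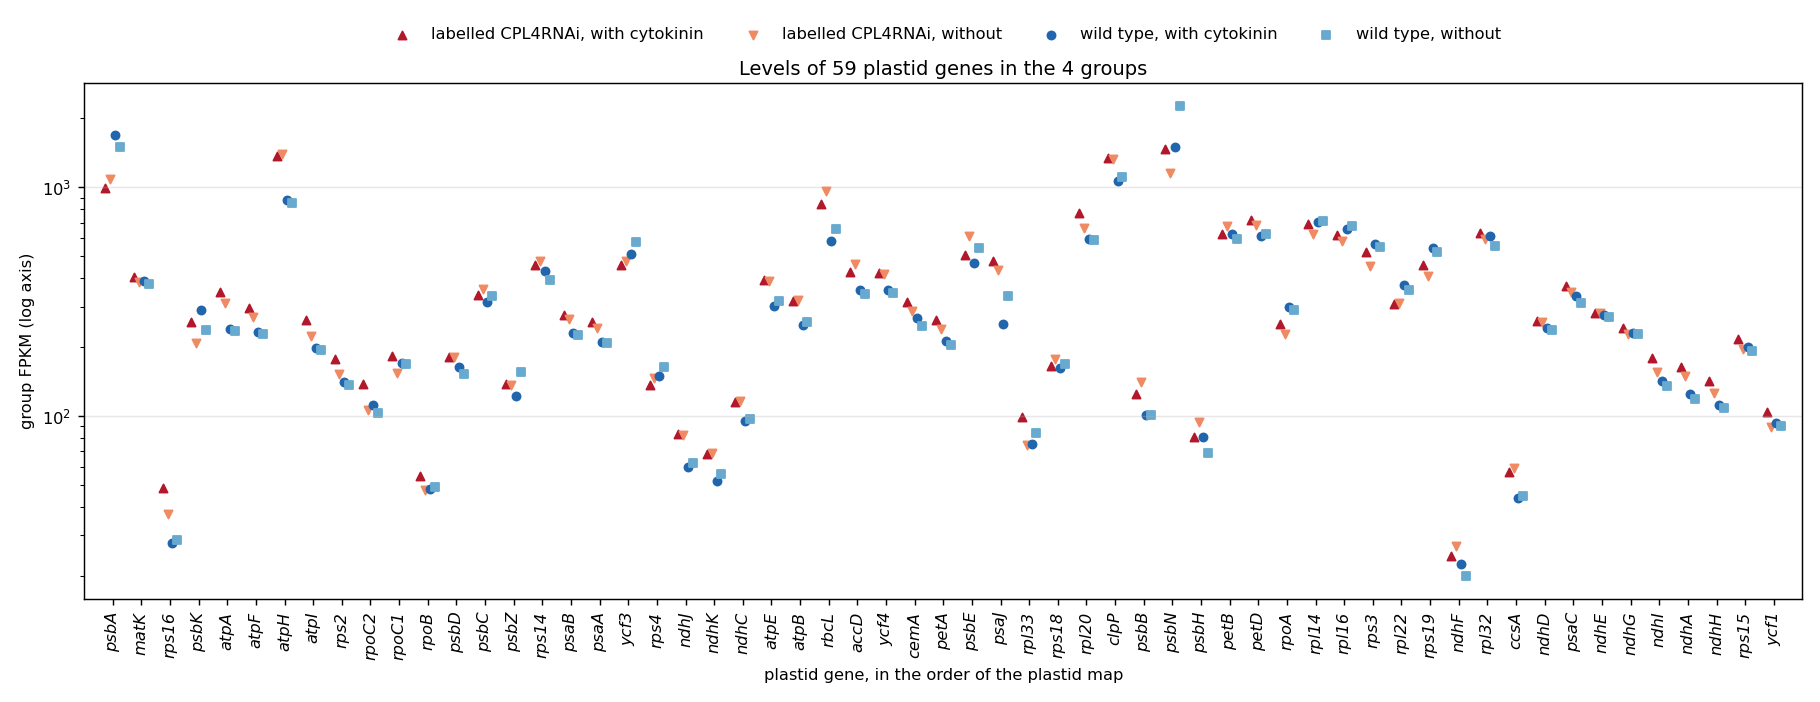
Group FPKM (log axis) of 59 of the 61 tested plastid genes in map order, with a point for each of the 4 groups and no replicate spread. The 4 points of most genes nearly coincide, while psbA is lower and atpH and rbcL are higher in both groups labelled CPL4RNAi.

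The 61 genes spanned 2 orders of magnitude in level, from ndhF at 19.99 FPKM to psbN at 2264 FPKM, both in wild type without cytokinin, while each differed little between groups. The highest group exceeded the lowest by a median of 1.27-fold, and by under 1.5-fold in 55 of the 61. By mean level over the 4 groups the order began with psbN (1597 FPKM), psbA (1317), clpP (1209), atpH (1123) and rbcL (764). FPKM are per length, so they can be ranked across genes, but psbN is so short that its level is uncertain. Summed over all 70 members the level was 22924 FPKM with cytokinin and 22062 without it in the groups labelled CPL4RNAi, against 21297 and 21888 FPKM in wild type. Without psbN the sums were 21450 and 20903 FPKM in the groups labelled CPL4RNAi, against 19805 and 19624 FPKM in wild type, so the order of the wild-type sums turned around. In bulk tissue, fewer plastids, fewer cells of a type and less RNA per cell cannot be told apart in such sums. The group with the highest level was labelled CPL4RNAi with cytokinin for 31 genes and without it for 16, and wild type with cytokinin for 8 and without it for 6.

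Between genotypes, most of the plastid genes called were higher in the groups labelled CPL4RNAi, with small folds. With cytokinin, 23 of the 61 (37.7%) were called, 22 higher and 1 lower in the group labelled CPL4RNAi, where 49.4% of all 19209 tested genes were called. Without cytokinin 19 of the 61 (31.1%) were called, 13 higher and 6 lower, against 44.1% of 19277 tested genes. The share called was thus below that of all genes in both media. By direction, the members called higher made up 36.1% with and 21.3% without cytokinin, against 24.7% and 22.5% of all tested genes. Those called lower made up 1.64% and 9.84%, against 24.7% and 21.5%. The median log2 fold of the 61 was 0.17 with and 0.18 without cytokinin, while that of all tested genes was 0.01 and 0.00. A fold above 0 was found for 48 of the 61 (78.7%) with and 43 (70.5%) without cytokinin, against 50.6% and 50.2% of all tested genes. A q of 0.01 or less was reached by 13 of the 61 with and 12 without cytokinin, where 39.1% and 33.8% of all tested genes reached it. No member was both called and changed by at least 2-fold, where 13.1% and 11.8% of all tested genes were. For cytokinin in the group labelled CPL4RNAi and in wild type, 1 and 0 members had a q of 0.01 or less (11.1% and 6.7% of all tested genes), and none passed the 2-fold minimum (3.49% and 2.75%). Neighbouring genes share transcripts, so the 61 are not independent of each other.

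**Figure D2:**
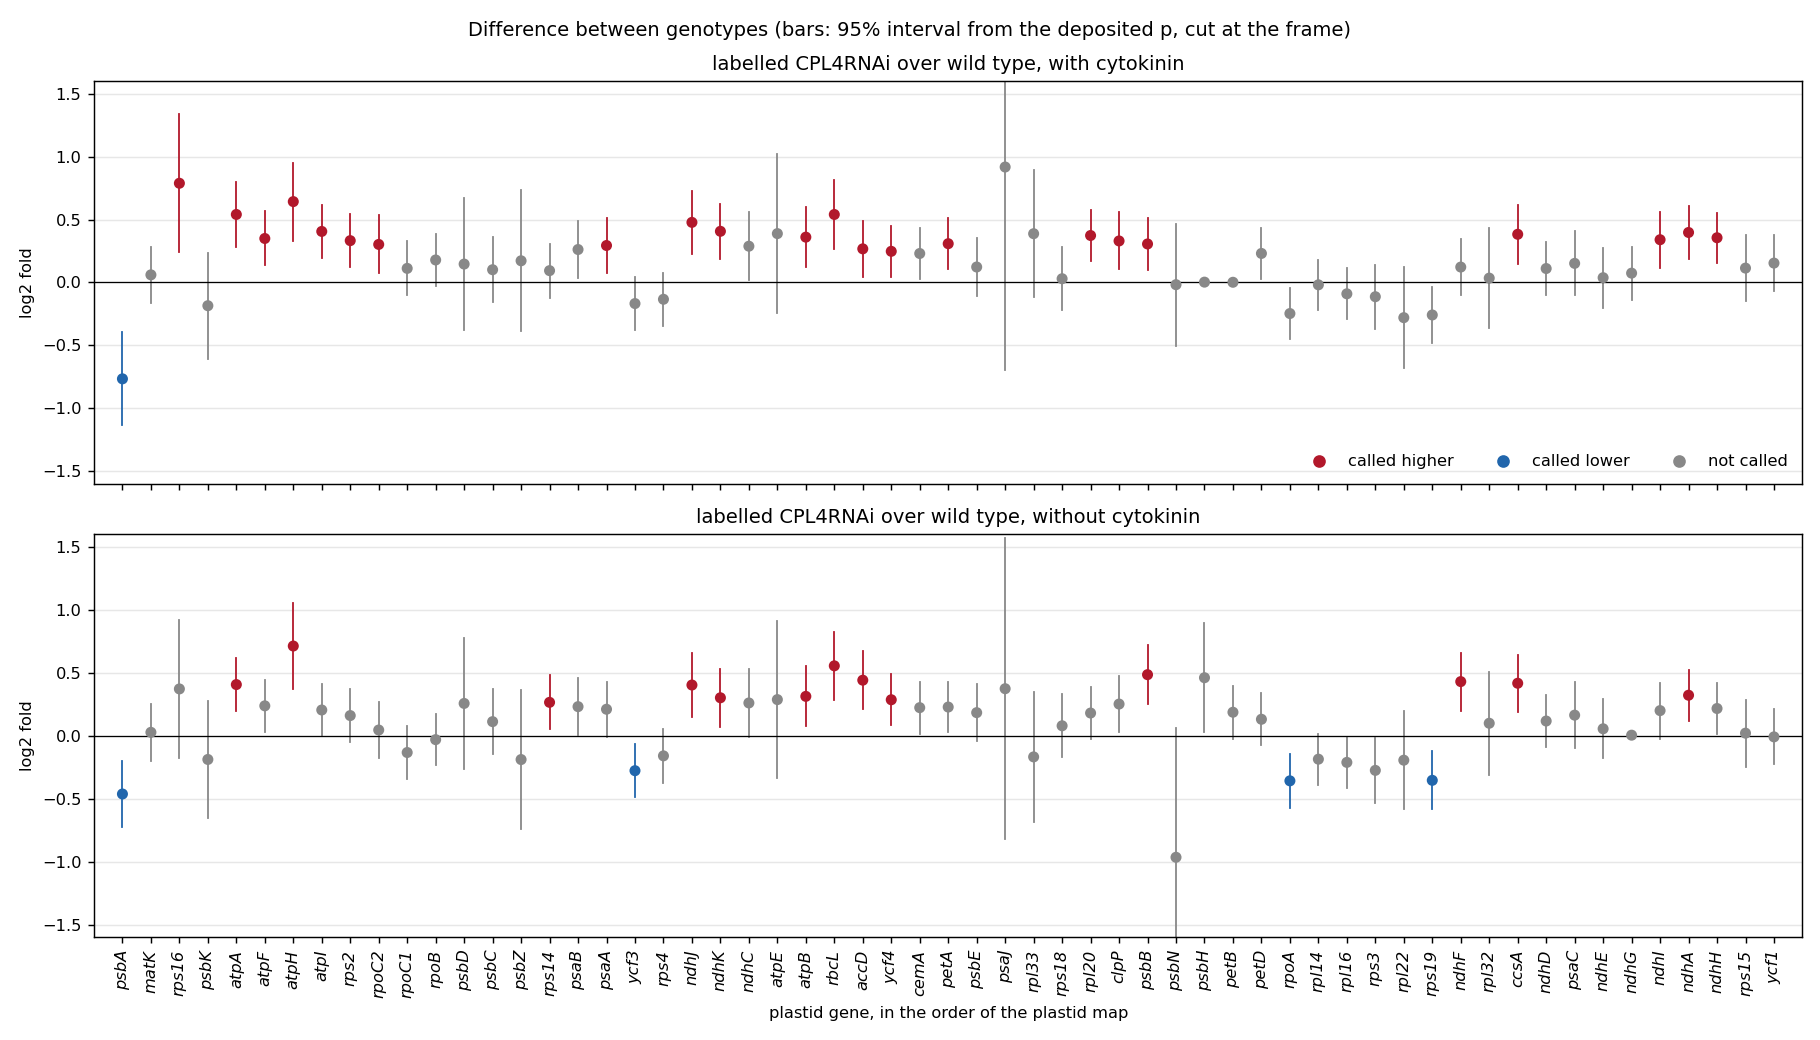
Log2 fold of the groups labelled CPL4RNAi over wild type for 59 of the 61 tested plastid genes in map order, with cytokinin (top) and without it (bottom). Bars are 95% intervals from the deposited p-value, drawn where that p is at or under 0.95, and colours mark calls: 22 higher and 1 lower in the top panel, 13 higher and 4 lower in the bottom one.

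Photosystem II genes split. psbA (ATCG00020, Pt:383-1444, minus strand) encodes the D1 reaction-centre protein, the subunit that light damages and that is replaced most often. Its level was 994 FPKM with cytokinin and 1087 without it in the groups labelled CPL4RNAi, against 1689 and 1498 FPKM in wild type. Both groups labelled CPL4RNAi therefore lay below both wild-type groups. It fell by 0.77 with cytokinin (SE at most 0.19, interval -1.14 to -0.40) and by 0.46 without it (SE 0.13, interval -0.72 to -0.20), the only member called lower in both media. No other photosystem II gene was called lower between genotypes. psbB (Pt:72371-73897), which encodes the inner antenna protein CP47, had 124 and 140.5 FPKM (with and without cytokinin) in the groups labelled CPL4RNAi and 100.5 and 100.4 FPKM in wild type. It rose by 0.31 (SE 0.11) with and by 0.48 (SE at most 0.12) without cytokinin. psbD, for the D2 protein, had 180 and 181 FPKM in the groups labelled CPL4RNAi, against 163 and 152 FPKM in wild type. psbC, for the antenna protein CP43, had 337 and 360 FPKM there, against 314 and 333 FPKM in wild type. Neither was called, and these genes overlap on the map by some bases, so that reads in the overlap belong to both. psbE, for a cytochrome b559 subunit, had 505 and 613 FPKM in the groups labelled CPL4RNAi and 464 and 540 FPKM in wild type, and was not called between genotypes. psbN had 1474 and 1159 FPKM in the groups labelled CPL4RNAi, against 1492 and 2264 FPKM in wild type. Its fold of -0.97 without cytokinin had an SE of 0.53 and was not called. psbN lies on the strand opposite to the psbB genes, and whether counting used the strand is not given in the sources used here, so its reads and theirs cannot be told apart with certainty. Of the 9 photosystem II genes tested, 1 was called higher and 1 lower in each medium, or 11.1% each. Among all tested genes 24.7% with and 22.5% without cytokinin were called higher, and 24.7% and 21.5% lower.

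In photosystem I the 2 large reaction-centre genes had similar values. psaA had 258 and 242 FPKM with and without cytokinin in the groups labelled CPL4RNAi, against 210 and 209 FPKM in wild type, and rose by 0.29 (SE 0.11) with cytokinin. Its fold of 0.21 (SE 0.11) without it was not called. psaB, the gene next to it, had 277 and 265 FPKM against 231 and 226 FPKM in wild type, with folds of 0.26 and 0.23 (SE 0.12 each) that were not called. psaC, which encodes the subunit that holds the terminal iron-sulfur clusters, had 370 and 347 FPKM against 333 and 310 FPKM in wild type and was not called. The short gene psaJ, for a small subunit, had 478 and 434 FPKM in the groups labelled CPL4RNAi, against 253 and 336 FPKM in wild type. Its folds of 0.92 (SE 0.82) and 0.37 (SE 0.61) were not called. The assembly factors of the photosystem went opposite ways. ycf4 had 422 and 418 FPKM in the groups labelled CPL4RNAi, against 356 and 343 FPKM in wild type, and rose by 0.25 and 0.29 (SE 0.10 each). ycf3 had 457 and 474 FPKM in the groups labelled CPL4RNAi, against 513 and 574 FPKM in wild type, and fell by 0.28 (SE 0.11) without cytokinin, while its fold of -0.17 with it was not called. Among cytochrome b6f genes petA, for cytochrome f, rose by 0.31 (SE 0.10) with cytokinin to 262 FPKM, against 212 FPKM in wild type. The corresponding fold of 0.23 (SE 0.10) without cytokinin was not called, and neither petB nor petD was called in either medium. petB, for cytochrome b6, had 623 and 678 FPKM in the groups labelled CPL4RNAi, against 622 and 596 FPKM in wild type.

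Of 6 genes of the chloroplast ATP synthase, which makes ATP from the proton gradient across the thylakoid membrane, 5 were called higher with cytokinin and 3 without it. None was called lower, and all 6 folds were above 0 in both media (medians 0.40 and 0.30). The shares called higher were 83.3% with and 50% without cytokinin, against 24.7% and 22.5% of all tested genes. atpH (ATCG00140, Pt:13262-13507, minus strand) encodes the subunit of the membrane ring and gave the largest fold of any called member without cytokinin. It had 1373 and 1390 FPKM with and without cytokinin in the groups labelled CPL4RNAi, against 879 and 849 FPKM in wild type. Both groups labelled CPL4RNAi lay above both of wild type, and the folds were 0.64 (SE at most 0.16) with and 0.71 (SE at most 0.18) without cytokinin. atpA, for the alpha subunit, had 348 and 311 FPKM in the groups labelled CPL4RNAi, against 239 and 235 FPKM in wild type, and rose by 0.54 (SE at most 0.13) and 0.41 (SE 0.11). atpB, for the beta subunit, had 319 and 320 FPKM in the groups labelled CPL4RNAi, against 249 and 257 FPKM in wild type, and rose by 0.36 and 0.31 (SE 0.12 each). atpF and atpI rose by 0.35 and 0.41 (SE 0.11 each) with cytokinin. Their folds of 0.24 and 0.20 without cytokinin were not called, and the difference between media was not called for either. atpE, which overlaps atpB on the map, had folds of 0.39 and 0.29 (SE 0.32 each) that were not called. Summed over the 6 genes the level was 2993 and 2903 FPKM with and without cytokinin in the groups labelled CPL4RNAi, against 2100 and 2083 FPKM in wild type.

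rbcL (ATCG00490, Pt:54958-56397, plus strand) encodes the large subunit of Rubisco, the carbon-fixing enzyme. It had 848 FPKM with cytokinin and 966 without it in the groups labelled CPL4RNAi, against 583 and 658 FPKM in wild type. The fold was 0.54 (SE 0.14, interval 0.27 to 0.81) with and 0.55 (SE at most 0.14, interval 0.29 to 0.82) without cytokinin, or 1.45-fold and 1.47-fold. Both groups labelled CPL4RNAi lay above both of wild type. The NDH complex, which carries electrons around photosystem I, had 10 tested genes, and all 10 folds were above 0 in both media. With cytokinin ndhJ, ndhK, ndhA, ndhH and ndhI were called higher, and without it ndhF, ndhJ, ndhA and ndhK. That is 50% and 40% of the 10, against 24.7% and 22.5% of all tested genes. ndhJ had 82.9 and 82.5 FPKM in the groups labelled CPL4RNAi, against 59.6 and 62.5 FPKM in wild type, and rose by 0.48 and 0.40 (SE 0.13 each). ndhF (Pt:110398-112638, minus strand), the tested member with the lowest level, had 24.4 and 26.9 FPKM in the groups labelled CPL4RNAi, against 22.4 and 19.99 FPKM in wild type. It rose by 0.43 (SE 0.12) without cytokinin, while its fold of 0.12 (SE 0.11) with it was not called. ndhH had 142 and 126 FPKM in the groups labelled CPL4RNAi, against 111 and 109 FPKM in wild type, and rose by 0.36 (SE 0.10) with cytokinin.

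The genes of the plastid RNA polymerase and of the small (rps) and large (rpl) ribosomal subunits were mixed in direction. For the catalytic subunits, rpoB had 54.4 and 47.5 FPKM with and without cytokinin in the groups labelled CPL4RNAi, against 48.1 and 48.6 FPKM in wild type. rpoC1 had 183 and 154 FPKM in the groups labelled CPL4RNAi, against 170 and 169 FPKM in wild type, and neither was called between genotypes. rpoC2 had 138 and 106 FPKM in the groups labelled CPL4RNAi, against 112 and 103 FPKM in wild type, and rose by 0.30 (SE 0.12) with cytokinin. rpoA, for the alpha subunit, had 253 and 227 FPKM in the groups labelled CPL4RNAi, against 300 and 291 FPKM in wild type. It fell by 0.36 (SE 0.11, interval -0.57 to -0.15) without cytokinin, and its fold of -0.25 (SE 0.11) with it was not called. rpoA is the last gene of a unit that runs from rpl23 through ribosomal protein genes, and the 8 tested genes of that unit had folds below 0 in both media. Their folds lay between -0.28 and -0.02 with and between -0.36 and -0.19 without cytokinin, with medians of -0.17 and -0.27. Among them rps3 and rpl22 overlap on the map, so that reads in the overlap belong to both. Without cytokinin 4 of the 8 were called lower, rpoA and rps19 among them, and with it none was called. The share called lower without cytokinin was 50%, against 21.5% of all tested genes, and with it 24.7% of all tested genes were. rps19 had 455 and 409 FPKM in the groups labelled CPL4RNAi, against 544 and 523 FPKM in wild type, and fell by 0.35 (SE 0.12) without cytokinin. Where q-values were adjusted within the comparison alone, rpoA and rps19 were also called lower with cytokinin, and psaB was also called higher.

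The other 12 tested polymerase and ribosomal protein genes had medians of 0.15 with and 0.06 without cytokinin, and 4 and 1 of them were called higher. The shares were 33.3% and 8.33%, against 24.7% and 22.5% of all tested genes. rps16 had 48.1 and 37.1 FPKM in the groups labelled CPL4RNAi, against 27.9 and 28.6 FPKM in wild type, and rose by 0.79 (SE 0.28) with cytokinin, the largest fold of any called member there. Its fold of 0.37 (SE 0.28) without cytokinin was not called. rpl20 had 769 and 664 FPKM in the groups labelled CPL4RNAi, against 594 and 586 FPKM in wild type, and rose by 0.37 (SE 0.10) with cytokinin. rps2 rose by 0.33 with cytokinin and rps14 by 0.26 without it. rps4 had 136 and 146 FPKM in the groups labelled CPL4RNAi, against 150 and 163 FPKM in wild type, with folds of -0.13 and -0.16 (SE 0.11 each) that were not called.

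Genes for other functions were called higher or not called. accD, for a subunit of the acetyl-CoA carboxylase of fatty acid synthesis, had 426 and 464 FPKM with and without cytokinin in the groups labelled CPL4RNAi, against 354 and 342 FPKM in wild type. It rose by 0.27 (SE 0.11) and 0.44 (SE 0.12). ccsA, for a factor that attaches heme to c-type cytochromes, had 56.9 and 59.3 FPKM in the groups labelled CPL4RNAi, against 43.6 and 44.5 FPKM in wild type, and rose by 0.38 and 0.42 (SE 0.12 each). clpP, for the protease subunit ClpP1, had 1338 and 1323 FPKM in the groups labelled CPL4RNAi, against 1065 and 1112 FPKM in wild type, and rose by 0.33 (SE 0.12) with cytokinin. Its fold of 0.25 (SE 0.11) without cytokinin was not called. matK, for a splicing maturase, had 404 and 385 FPKM in the groups labelled CPL4RNAi, against 387 and 378 FPKM in wild type. Its folds of 0.06 and 0.03 were not called and had 95% intervals of -0.16 to 0.28 and -0.20 to 0.25. ycf1, for a part of the protein import machinery of the inner envelope, had 103 and 89.7 FPKM against 93.0 and 90.3 FPKM in wild type and was not called. Over the members that were not called, the median distance from the fold to its 95% bound was 0.23 with and 0.22 without cytokinin. It is not a limit of detection, since calls rest on q and precision differed between genes. Larger folds also went uncalled, such as 0.46 (SE 0.22) for psbH without cytokinin.

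By transcription unit, as known from textbooks and set out with the values at hand, the folds of neighbours had the same sign in most units. The 5 genes of the unit from rps2 to atpA were all called higher with cytokinin (median 0.41) and 2 of them without it (median 0.24). In the unit from accD to petA 3 of 4 were called higher with and 2 without cytokinin, and in the unit of ndhC, ndhK and ndhJ 2 of 3 in each medium. In the unit from ndhD to rps15 all 8 folds were above 0 in both media, with 3 and 1 called. In the order given, 100%, 75%, 66.7% and 37.5% of these units were called higher with cytokinin. Without it the shares were 40%, 50%, 66.7% and 12.5%. Among all tested genes 24.7% with and 22.5% without cytokinin were called higher. The unit of psbD, psbC and psbZ had no call in either medium. On the plus strand 6 of 18 tested genes were called higher with and 5 without cytokinin, and none was called lower. On the minus strand 16 of 43 were called higher and 1 lower with cytokinin, and 8 higher and 6 lower without it. The shares called higher were 33.3% and 27.8% on the plus strand and 37.2% and 18.6% on the minus strand. Those called lower on the minus strand were 2.33% and 14%, against 24.7% and 21.5% of all tested genes. No test compares strands or units.

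**Figure D3:**
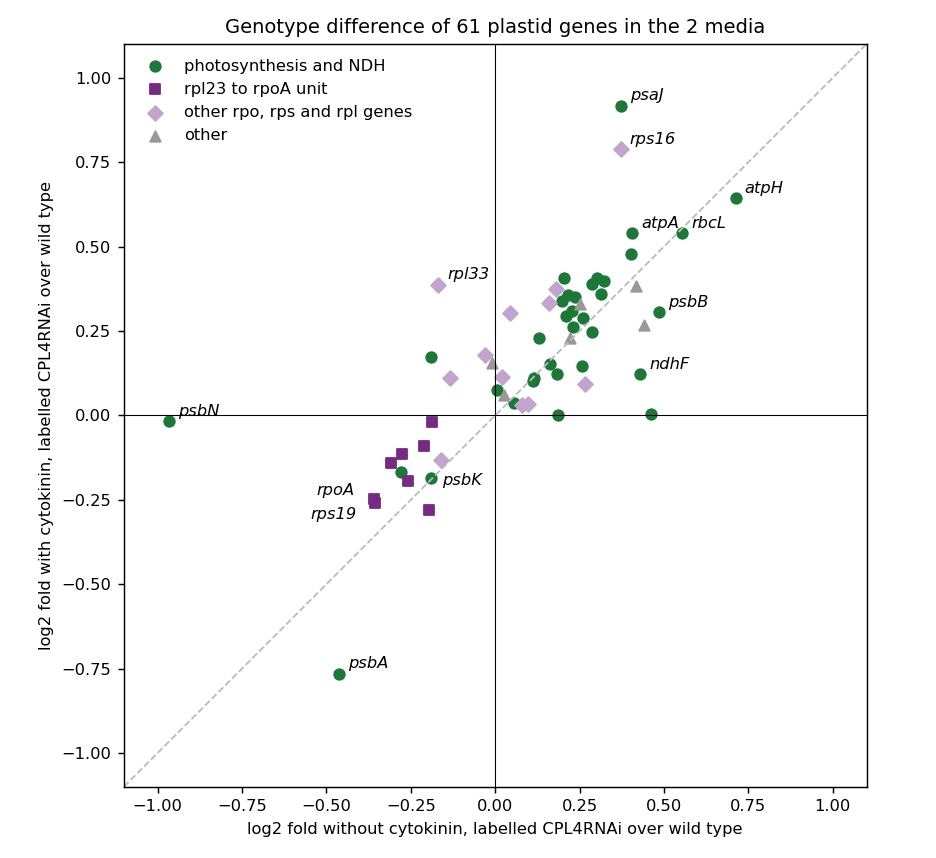
Log2 fold of the groups labelled CPL4RNAi over wild type for the 61 tested plastid genes, without cytokinin (x axis) and with it (y axis), with the dashed line marking equal folds. Photosynthesis and NDH genes lie mostly at the upper right, the squares of the unit from rpl23 to rpoA lie at the lower left, and psbA lies lowest.

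The genotype differences in the 2 media rest on separate samples and resembled each other. Of the genes called higher, 11 were shared, which is 50% of those with and 84.6% of those without cytokinin. The 11 are atpA, atpH, atpB, rbcL, psbB, ycf4, accD, ccsA, ndhJ, ndhK and ndhA. psbA was the 1 gene called lower in both, 100% of those with and 16.7% of those without cytokinin. No gene was called in opposite directions, 30 were called in at least 1 medium and 31 in neither. Of all tested genes 24.7% were called higher with and 22.5% without cytokinin, and 24.7% and 21.5% lower. How many of all tested genes were called in both media was not counted, so the overlap is not shown to be particular to plastid genes. Across the 61 genes the folds had the same sign in 56, with a Pearson's r of 0.73 and a Spearman's rho of 0.75. For comparison, r was 0.90 across 14708 nuclear genes with a mean level of 5 FPKM or more. With cytokinin the folds of all tested nuclear genes ran from -6.76 to 9.23, and those of the 61 from -0.77 to 0.92. The nuclear range includes genes with a mean level under 5 FPKM, and the range of the 14708 alone was not computed. The r values therefore cannot be set directly against each other. Both are descriptions across genes, which share libraries within a medium and, for the plastid genes, transcripts.

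Few plastid genes were called between media. In the group labelled CPL4RNAi 2 of the 61 (3.28%) were called between media, while 17.3% of 19156 tested genes were. The 1 called higher and the 1 called lower stand against 8.42% and 8.88% of all tested genes. rpoC2 rose by 0.38 (SE 0.12), at 138 FPKM with and 106 without cytokinin. psbE fell by 0.28 (SE 0.12), at 505 FPKM with and 613 without cytokinin. This is the only member called lower, with a q of 0.047 in the authors' deposited table, and it lost the call where q-values were adjusted within the comparison alone. A further 4 members had an unadjusted p under 0.05 there, giving 6 in all. In wild type 0 of the 61 were called by the authors' Cuffdiff test, and 0 had an unadjusted p under 0.05, while 10.3% of 18827 tested genes were called (6.58% higher and 3.71% lower). In wild type the same 2 genes stood at 112 FPKM with and 103 without cytokinin for rpoC2, and at 464 and 540 FPKM for psbE. The median fold over the 61 was 0.08 in the group labelled CPL4RNAi and 0.02 in wild type, against 0.01 and 0.02 over all tested genes.

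The largest cytokinin effect in wild type by size was that of psbN, -0.60 (SE 0.41), and in the groups labelled CPL4RNAi that of rpl33, 0.40 (SE 0.26), and neither was called. For psbA cytokinin gave -0.13 (SE 0.12, interval -0.37 to 0.11) in the group labelled CPL4RNAi and 0.17 (SE 0.14, interval -0.10 to 0.45) in wild type. The corresponding values for rbcL were -0.19 (SE 0.14) and -0.17 (SE 0.13). All 3 genes of the rpoB unit had folds above 0 in the group labelled CPL4RNAi, with rpoB at 0.19, rpoC1 at 0.25 and rpoC2 at 0.38, of which rpoC2 alone was called. In wild type they were -0.02, 0.01 and 0.12. The 2 cytokinin effects resembled each other little across the 61 genes, with the same sign in 39, a Pearson's r of -0.03 and a Spearman's rho of 0.09.

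**Figure D4:**
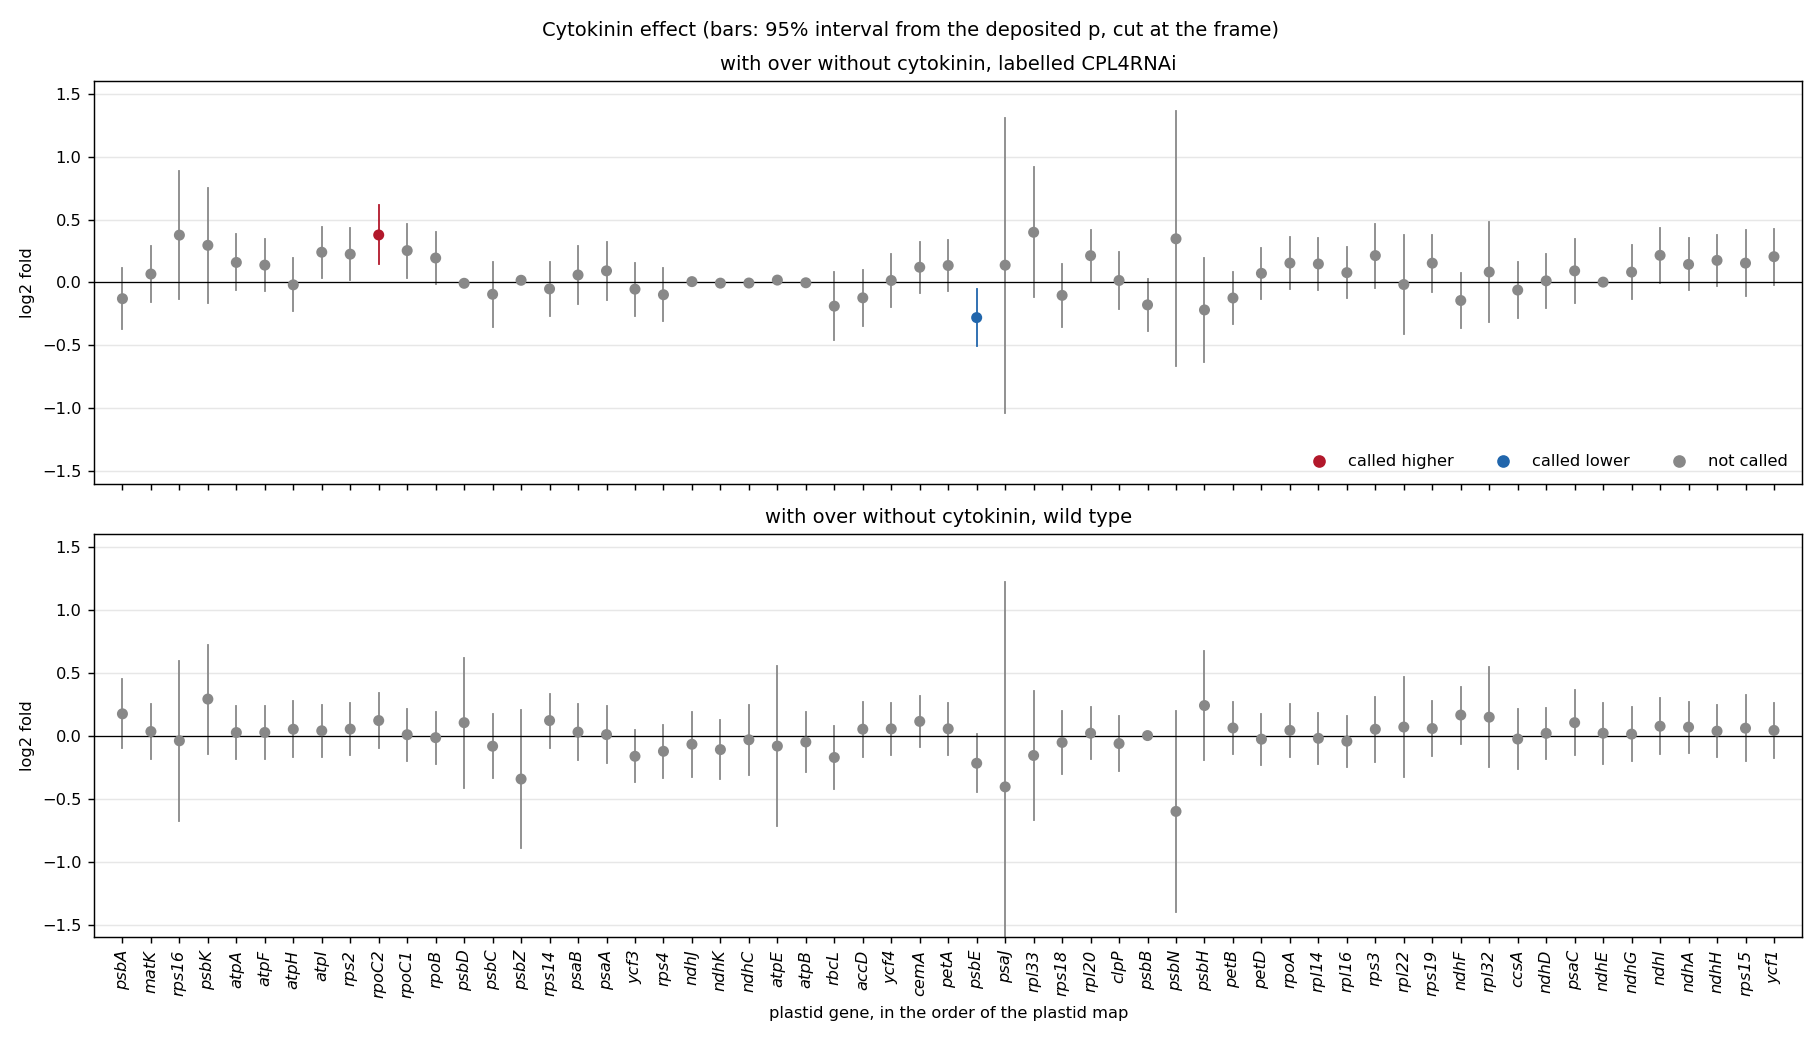
Log2 fold with over without cytokinin for 59 of the 61 tested plastid genes in map order, in the group labelled CPL4RNAi (top) and in wild type (bottom). Bars are 95% intervals from the deposited p-value, drawn where that p is at or under 0.95; rpoC2 and psbE are the only coloured (called) points.

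Whether cytokinin acted differently in the 2 genotypes was tested directly for 60 members, with psbN left out because its pairwise p-values gave no common error. None was called and 0 had an unadjusted p under 0.05, while 2.63% of 17946 tested genes were called (0.502% with a higher and 2.13% with a lower effect in the group labelled CPL4RNAi). The smallest adjusted p among the members, by a normal test with Benjamini-Hochberg adjustment over all genes, was 0.45. The differences ran from -0.46 (psbH, SE 0.31) to 0.56 (rpl33, SE 0.37), with a median of 0.08. For psbA the difference was -0.30 (SE 0.19, interval -0.67 to 0.07) and for rpoC2 0.26 (SE 0.16, interval -0.06 to 0.58). The calls that genotypes or media did not share were therefore not shown to differ.

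Among nuclear genes whose products act on plastid genes more were called lower than higher. Of 7 tested sigma factors and phage-type polymerases, 0 were called higher and 2 lower with cytokinin, and 1 higher and 4 lower without it (medians -0.20 and -0.29). SIG5, a sigma factor known for activating the psbD promoter in light and stress, had 1.54 and 2.49 FPKM with and without cytokinin in the groups labelled CPL4RNAi, against 2.71 and 3.47 FPKM in wild type. It fell by 0.81 (SE 0.23) with and by 0.48 (SE 0.18) without cytokinin. SIG3, known for psbN transcription, fell by 0.81 (SE 0.21) with cytokinin. SIG1 rose by 0.40 (SE 0.15) without it, at 6.64 FPKM in the group labelled CPL4RNAi and 5.04 FPKM in wild type. RPOTp, the plastid phage-type polymerase, had 9.0 and 8.02 FPKM in the groups labelled CPL4RNAi, against 10.3 and 11.3 FPKM in wild type, and fell by 0.49 (SE at most 0.12) without cytokinin. The PEP-associated proteins, nuclear subunits needed for a working PEP, had 0 of 12 called higher in either medium and 3 called lower with and 4 without cytokinin. The shares called lower with cytokinin, 28.6% of the sigma factors and polymerases and 25% of these proteins, lie close to the 24.7% of all tested genes. Without cytokinin they were 57.1% and 33.3%, against 21.5% of all tested genes, and no test compares these short lists with other genes. PAP8 fell in both, by 0.38 (SE 0.13) with and by 0.45 (SE 0.12) without cytokinin. For cytokinin in the group labelled CPL4RNAi, SIG1, SIG3 and SIG5 fell and RPOTmp, the polymerase of both plastids and mitochondria, rose by 0.34 (SE 0.11). These are 42.9% called lower and 14.3% higher, against 8.88% and 8.42% of all tested genes. In wild type 0 of the 7 were called, where 10.3% of all tested genes were. The difference between these cytokinin effects was called for 0 of the 7, so they were not shown to differ between genotypes.

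**Figure D5:**
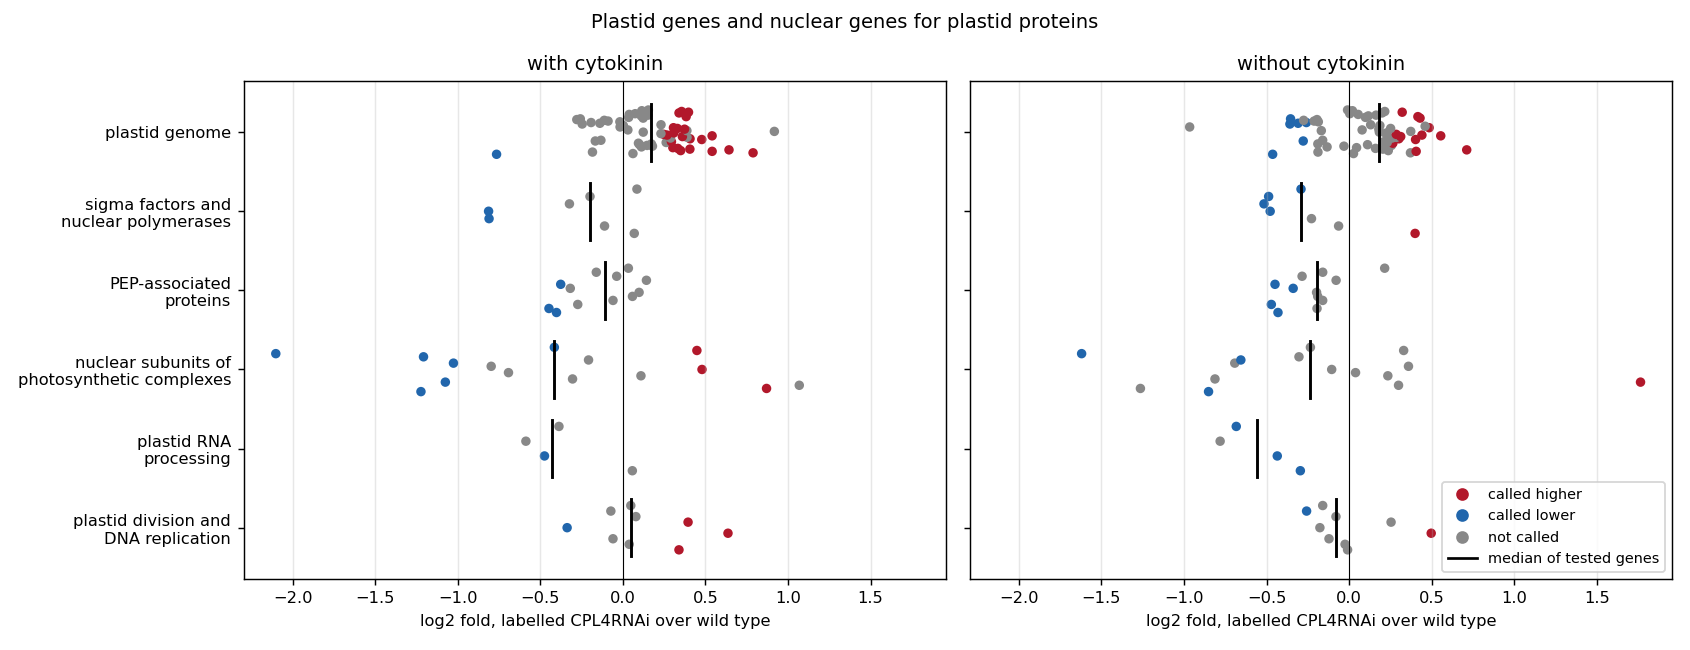
Log2 fold of the groups labelled CPL4RNAi over wild type for tested plastid genes and 5 lists of nuclear genes for plastid functions, with cytokinin (left) and without it (right). Each point is a gene and black lines are medians, 0.17 and 0.18 for the plastid genome and below 0 for the first 4 nuclear lists in both panels.

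Nuclear genes for subunits of the same photosynthetic complexes were low and mixed. Of 29, only 15 were tested between genotypes in each medium. With cytokinin 3 were called higher and 6 lower (20% and 40%), against 24.7% in each direction of all tested genes. Without it 1 was called higher and 3 lower (6.67% and 20%), against 22.5% and 21.5% of all tested genes. ATPC1, for the gamma subunit of the ATP synthase, had 0.222 and 0.389 FPKM with and without cytokinin in the groups labelled CPL4RNAi, against 0.955 and 1.20 FPKM in wild type. It was called lower in both media while the plastid genes of that enzyme were called higher or not called. ATPD, for the delta subunit, had 8.34 and 8.06 FPKM against 6.11 and 6.42 FPKM in wild type and rose by 0.45 (SE 0.18) with cytokinin. PSBO1, of the oxygen-evolving complex, had 4.22 and 4.79 FPKM against 9.86 and 8.65 FPKM in wild type and was called lower in both media. Other genes of that complex went the other way. PSBP1 rose by 0.87 (SE 0.28) with cytokinin, and its fold of 0.30 (SE 0.26) without it was not called. PSBQ1 rose by 1.76 (SE 0.66) without cytokinin, and its fold of 1.07 (SE 0.50) with it was not called. Of 4 tested genes for plastid RNA processing none was called higher, and 1 was called lower with and 3 without cytokinin (25% and 75%). Among all tested genes 24.7% and 21.5% were called lower. PNP, the plastid polynucleotide phosphorylase that trims and degrades RNA, fell by 0.48 (SE at most 0.12) with and by 0.44 (SE 0.11) without cytokinin. Of 9 genes for plastid division and DNA replication 3 were called higher and 1 lower with cytokinin (33.3% and 11.1%). Without it 1 was called higher and 1 lower (11.1% each). No test compares these short lists with all tested genes. PDV1, a division protein of the outer envelope, had 34.1 and 27.1 FPKM in the groups labelled CPL4RNAi, against 21.9 and 19.2 FPKM in wild type, and rose by 0.64 (SE at most 0.16) and 0.50 (SE 0.13). The plastid DNA polymerase genes POLIA and POLIB were not called with cytokinin, and POLIA fell by 0.26 (SE 0.11) without it. Whether any of these genes plays a part in the plastid levels was not tested.

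The other organelle gave a similar count. Of 54 tested mitochondrial genes 18 were called higher and 1 lower with cytokinin (33.3% and 1.85%). Among all tested genes 24.7% were called in each direction. Of 53 without it 11 and 7 were called (20.8% and 13.2%), against 22.5% and 21.5% of all tested genes. The medians of the mitochondrial genes were 0.32 and 0.15. Whether plastid and mitochondrial genes differ was not tested. Between media in the group labelled CPL4RNAi, 10 of 53 mitochondrial genes (18.9%) were called higher and none lower. The plastid genome had 1 higher and 1 lower (1.64% each), and all tested genes had 8.42% and 8.88%.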

How the data were processed

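Total RNA of root explants was sequenced as stranded libraries depleted of ribosomal RNA, with paired reads of 125 nt, per the labels' protocols. Per the submitters' processing notes bcl2fastq 2.17.1.14, TopHat2 2.0.14 and Cuffdiff 2.2.1.3 were used with TAIR10; options are not given in the sources used here. The authors' deposited table holds a group FPKM per gene and a p-value and q-value for each of 6 pairs of groups, per the file headers. The deposited q-value equals a Benjamini-Hochberg adjustment over all 115069 tests (largest difference 5.3e-07), and the smallest p is 5e-05.

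Log2 folds were computed from FPKM with no pseudocount. Their SE was taken as the fold divided by the 2-sided normal quantile that its deposited p gives (p at or under 0.95), an upper bound where p is at 5e-05; it reflects Cuffdiff's modelled variance. The error of the difference of cytokinin effects was solved from pairs of comparisons holding all 4 groups; 16621 genes had a solved error, 1325 an upper bound, and 440 were left out where pairs differed by more than 10%. The procedure was run on simulated data with normal errors, equal in the 4 groups, and p-values from the same normal quantile. That run shares the assumptions of the procedure and does not check them for Cuffdiff's p-values. All 70 members were matched to TAIR10.1 (59 with equal coordinates, the others by symbol); its genome gave the windows, since no table of promoters was used. Coordinates are 1-based.

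Named were a fixed list of main members, the largest called member of each class per direction and comparison, and the 5 highest by mean FPKM; other members named, and the nuclear genes, were picked after their values were seen. The values of 2 tested members are counted in the sums and counts and are not reported here singly. The members and lists were chosen with earlier results of these data known. The alternatives were a stricter q, a 2-fold minimum, adjustment within a comparison, low and short members, a pseudocount of 1 FPKM and recentring. The tools were SciPy 1.17.1, pandas 2.3.3, numpy 2.4.6 and, for plots, matplotlib 3.10.9, under Python 3.11.15.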

Additional observations from a re-analysis of the deposited data

How the results depend on the processing

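Of 73 alternative values for counts, medians and sums 63 stayed close to the main value. Counts were judged by a limit on their ratio to the main count, and medians and sums by a shift under a median SE. For named members 518 of 544 alternative values kept their direction and side of the threshold. At q at or under 0.01 the counts called were 13 between genotypes with cytokinin, 12 without it, and 1 for cytokinin in the group labelled CPL4RNAi. With a 2-fold minimum all 3 were 0, where 13.1%, 11.8% and 3.49% of all tested genes passed. The cytokinin count was also 1 with adjustment within the comparison, with that adjustment among genes of 1 FPKM or more, and without members under 300 bases, which leaves out psbE by construction. Without psbN the summed FPKM of wild type was 19805 with and 19624 without cytokinin, the reverse of their order with it. Recentring on nuclear genes, which shifted folds by at most 0.021, turned 8 folds near 0 that were not called: rpoC1 (-0.0132), psaA (-0.0122), rpl20 (-0.0013) and psbB (-0.020) for cytokinin in wild type, ndhJ (-0.013), ycf4 (-0.0039) and clpP (-0.0039) for cytokinin in the group labelled CPL4RNAi, and petB (-0.0044) between genotypes with cytokinin. No paired analysis was possible because the table holds group values only, and leaving out replicates was not run for the same reason. Precision differed between members: the median SE of a genotype fold was 0.21 with and 0.22 without cytokinin for the 13 tested genes under 300 bases, and 0.11 in both for the other 48; whether length, level or overlap sets it was not tested.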
